A study of Mus musculus with 14 samples.

Results

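Genes of glycolysis, glycogen metabolism, pyruvate dehydrogenase control and glucose or lactate transport were read from 6 groups of libraries of mouse cerebral cortex. The members were the rows of the count table whose symbol is one of 37 listed names. They numbered 38 of 32830 rows, because the symbol Eno1 stands on 2 rows. By its identifier, one of these rows is Eno1b, a gene of near-identical sequence, and it is called that here. The members were taken as 4 sets, with 21 rows for glycolysis, 6 for glycogen, 6 for pyruvate dehydrogenase control and 5 for carriers. All 38 passed the filter on low values.

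All mice were of the SW strain, carried the Aldh1l1-GFP reporter and were 14 days old. Aldh1l1-GFP drives green fluorescent protein from the regulatory sequence of Aldh1l1, an astrocyte gene, so a cell counted as an astrocyte here is a GFP-positive cell. The upper and deep layers of the cortex were dissected apart. GFP-positive cells (astrocytes, 3 libraries a layer) and GFP-negative cells (non-astrocytes, 2 libraries a layer) were sorted from papain-dissociated tissue, and bulk tissue (2 libraries a layer) was whole cortical layer. No treatment or mutation parts the groups. The labels number the replicates without saying that each came from its own animal, so the spread behind each p-value is that between libraries and may be technical.

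Glycolysis splits glucose into pyruvate in the cytosol. Lactate dehydrogenase turns pyruvate into lactate and back, while the pyruvate dehydrogenase complex commits it to the mitochondria. Pyruvate dehydrogenase kinases switch that complex off by phosphorylating it, and its phosphatases switch it on. In the brain, glycogen is stored mainly in astrocytes, and lactate crosses membranes through monocarboxylate carriers of the Slc16a family. Several of these steps are run by isoenzymes known to differ between cell types, such as Aldoc of astrocytes and Eno2 of neurons.

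As examples of regulatory sequence of members that differed widely between the sorted fractions, the bases upstream of 4 of them are shown. They are from RefSeq (GRCm38.p6), 5′ to 3′ on the gene's own strand, and end at or before the annotated start of the gene. Capitals mark ACGTG or GCGTG on either strand (CACGT or CACGC on the strand shown), the core letters of the element bound by hypoxia-inducible factors. Where ACGTG and CACGT overlap they form the E-box CACGTG. Ppp1r3c and Pfkm were higher in astrocytes than in non-astrocytes, and Hk2 and Slc16a1 were lower. The windows are chr19:36736654-36736854 (minus strand) for Ppp1r3c, chr15:98092339-98092588 (plus strand) for Pfkm, chr6:82774455-82774704 (minus strand) for Hk2 and chr3:104638414-104638663 (plus strand) for Slc16a1. Each belongs to the first listed start of its gene. Pfkm has further listed starts, with windows from 98108221, 98108306 and 98111810 that hold 2, 1 and 0 matches. Which start these cells use was not tested.
Ppp1r3c: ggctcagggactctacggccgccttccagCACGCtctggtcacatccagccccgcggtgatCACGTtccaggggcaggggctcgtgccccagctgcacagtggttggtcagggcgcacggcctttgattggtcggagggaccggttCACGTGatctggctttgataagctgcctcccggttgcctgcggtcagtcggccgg
Pfkm: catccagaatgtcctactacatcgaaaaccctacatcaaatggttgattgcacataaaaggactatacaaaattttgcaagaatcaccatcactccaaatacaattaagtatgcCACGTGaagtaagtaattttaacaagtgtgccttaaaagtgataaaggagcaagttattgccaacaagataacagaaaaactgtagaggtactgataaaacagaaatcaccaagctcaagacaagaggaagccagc
Hk2: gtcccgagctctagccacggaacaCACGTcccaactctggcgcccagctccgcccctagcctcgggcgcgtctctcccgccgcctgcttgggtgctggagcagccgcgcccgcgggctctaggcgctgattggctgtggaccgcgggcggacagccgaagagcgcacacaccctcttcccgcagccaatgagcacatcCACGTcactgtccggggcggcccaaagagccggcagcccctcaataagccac
Slc16a1: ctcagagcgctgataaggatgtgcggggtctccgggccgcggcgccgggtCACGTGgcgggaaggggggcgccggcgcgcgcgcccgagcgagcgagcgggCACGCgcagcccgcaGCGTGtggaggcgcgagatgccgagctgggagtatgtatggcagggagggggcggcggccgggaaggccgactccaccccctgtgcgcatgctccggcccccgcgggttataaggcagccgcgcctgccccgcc
Over the 34 members with a RefSeq entry, 26 (76.5%) held at least 1 of these words in the 250 bases before the first listed start. Among all 27025 genes with an entry the share was 38.6%. All of these words hold the bases CG, and the genes were not matched to the members for base composition. Whether base composition accounts for the difference between the shares was not tested. Matches were found in the promoters of members that were higher and of members that were lower in astrocytes. A match is a run of letters and not a binding site, and the 4 other rows had no entry.

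The libraries held 18226457 to 30316765 reads in genes. Levels are normalised read counts, which are the read counts of a gene divided by a size factor of the library. The 10 astrocyte marker genes listed summed to 969200 to 1446000 normalised read counts in the astrocytes, 25910 to 33530 in the non-astrocytes and 185400 to 221400 in bulk tissue. The 10 neuron markers summed to 487.2 to 723.5, 5090 to 9861 and 132700 to 176300 in the same order, so the GFP-negative sort held few neuronal transcripts beside bulk tissue. Its microglia (202700 to 289800), mural (226900 to 300400), endothelial (37550 to 53580) and oligodendrocyte (55390 to 159100) marker sums were all above those of the astrocytes, the highest of which was 8195. Sums of 9 oligodendrocyte precursor markers were 16960 to 26610 in astrocytes, 35730 to 76140 in non-astrocytes and 11690 to 16930 in bulk tissue. Meningeal fibroblast marker sums were 18790 to 35180 in non-astrocytes, against at most 1366 in astrocytes and 2159 in bulk tissue. Those of blood were 7183 to 28210, against at most 322.9 and 2649. No listed marker was at 0 in all libraries of a fraction. Deep layer astrocytes 2 stood apart from the other deep layer astrocyte libraries, with a chi-square per degree of freedom of 114.53 and 127.31 against them and 23.78 between those. Xist was at 135481 in that library and at 56563 and 66391 in the others. The Y-linked Eif2s3y was at 13 and 6 in both bulk tissue libraries numbered 1 and at 615 and 658 in those numbered 2, so the sexes mixed in them differ, which bears on the X-linked members Pgk1, Pdk3 and Pdha1.

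Astrocytes were compared with non-astrocytes to see which of these genes the sorted cells carry (limma, called at an adjusted p below 0.05, n = 6 against 4, both layers weighed equally). Of the 38 members, 25 were higher in astrocytes, 9 were lower and 4 (Pfkl, Pkm, Gbe1 and Slc2a3) did not pass the test. Among all 22575 genes tested, 66.3% were called, 29.6% higher and 36.8% lower, and the median log2 difference was -0.08, against 1.05 for the members. By set, 17 of 21 glycolysis rows were higher and 2 lower (median 1.24), 5 of 6 glycogen genes higher (median 2.18), and 3 higher and 3 lower of the 6 genes of pyruvate dehydrogenase control (median 0.24). Of the 5 carriers none was higher and 4 were lower (median -2.59). Without deep layer astrocytes 2 the counts were 25 higher and 11 lower. Over all 22575 genes 6815 were then called higher and 8486 lower, against 6677 and 8301 with that library. With 66.3% of all genes called, a call by itself sets few genes apart, and a member's size of change says more than its call.

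Against bulk tissue the picture by set was different (n = 6 against 4). There 16 members were higher in astrocytes, 15 lower and 7 not called, with a median of 0.09, where 64.8% of all genes were called (28.8% higher, 36.1% lower, median -0.10). Glycolysis rows split into 8 higher and 9 lower, the carriers into 1 higher and 3 lower, and pyruvate dehydrogenase control into 2 higher and 3 lower. Glycogen genes kept to 1 direction, with 5 of 6 higher (median 1.61). In bulk tissue, fewer cells of a type and less RNA per cell cannot be told apart. Bulk tissue was also not dissociated or sorted, and the effect of that step cannot be told apart from the fraction. The comparisons of the 3 fractions share their libraries and are therefore given side by side and not counted as separate evidence.

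**Figure D1:**
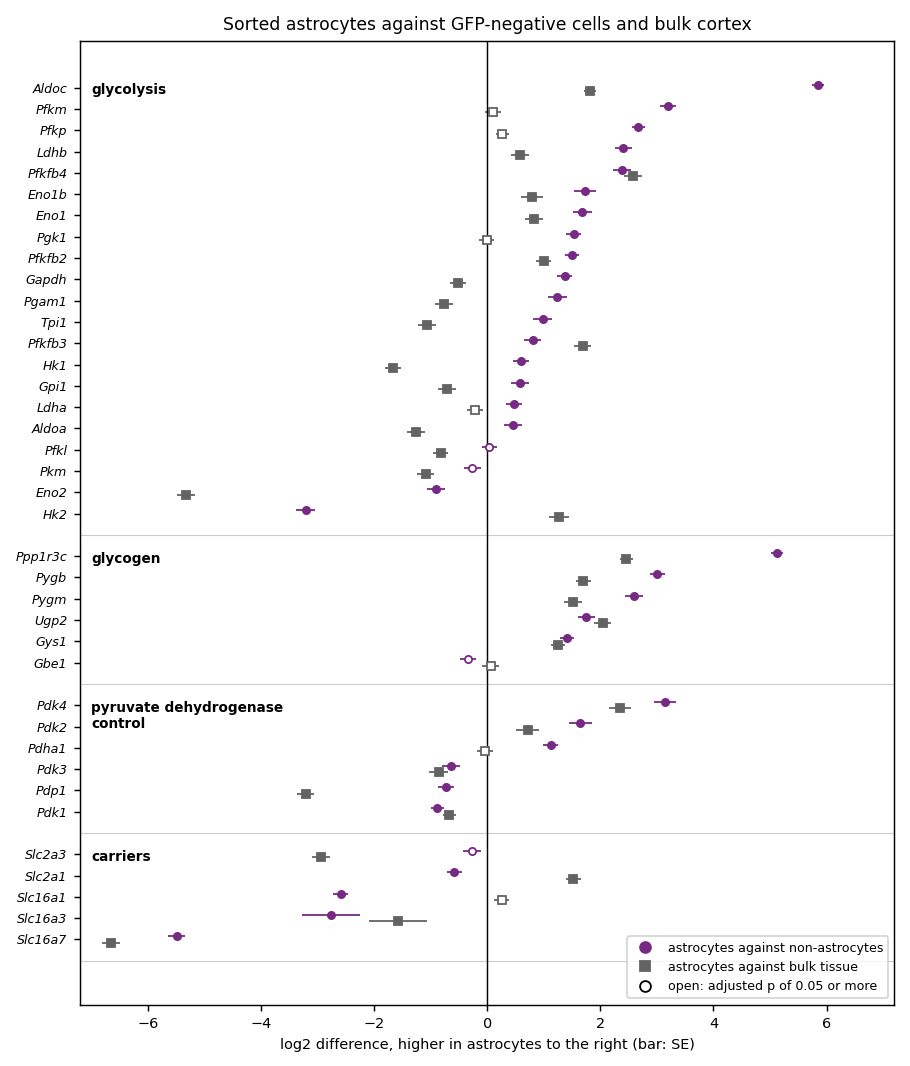
Log2 differences of the 38 members in sorted astrocytes against non-astrocytes (circles) and against bulk tissue (squares), grouped by set, with bars for the standard error and open symbols where the adjusted p was 0.05 or more. Aldoc at 5.85 and Ppp1r3c at 5.12 lie farthest to the right against non-astrocytes, and Slc16a7 lies farthest to the left in both comparisons (-5.49 and -6.65).

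Among the enzymes of the glycolytic chain, Aldoc, the aldolase of astrocytes (chromosome 11, 78322968 to 78327781, GRCm38), differed most. Its normalised read counts were 61904, 70670 and 60899 in the deep layer astrocytes and 74443, 86257 and 80494 in the upper layer astrocytes. They were 1399 and 1209 in the deep and 1069 and 1327 in the upper layer non-astrocytes, and 19543, 18905, 21575 and 21383 in bulk tissue. The 3 fractions did not overlap, and all 3 upper layer astrocyte libraries were above the deep ones. Astrocytes held 72440 ± 10100 (SD, n = 6) against 1251 ± 144 (n = 4) in non-astrocytes, a 57.7-fold difference (log2 5.85, SE 0.111, limma adjusted p = 4.52e-14), and 3.54-fold more than bulk tissue (20350 ± 1330, adjusted p = 1.08e-09). This single gene took 0.247% to 0.343% of the summed normalised counts of an astrocyte library, where the whole glycolysis set took 0.470% to 0.677%. In non-astrocytes the set took 0.146% to 0.166% and in bulk tissue 0.377% to 0.436%.

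Aldoa, the other aldolase (chromosome 7, 126795234 to 126800751), lay much closer between the sorted fractions. It read 3288, 4206 and 3201 in deep and 3601, 4958 and 4607 in upper layer astrocytes, and 2456, 3615, 2197 and 3507 in the non-astrocytes, so the sorted fractions overlapped. Bulk tissue held 9674, 10575, 8221 and 9245, above every sorted library. The difference from non-astrocytes was 0.45 on the log2 scale (SE 0.159, limma adjusted p = 0.0221) and was lost on scaling by library totals (0.26, adjusted p = 0.059) and without upper layer astrocytes 2 (adjusted p = 0.0529), deep layer non-astrocytes 1 (0.131) or upper layer non-astrocytes 1 (0.139). Over 24 alternatives its adjusted p ran from 0.00437 to 0.139. Against bulk tissue Aldoa was lower by -1.26 (adjusted p = 4.75e-06). Scaled by exon length, Aldoc made up 94.2% ± 0.41 (SD, n = 6) of the summed level of Aldoa and Aldoc in astrocytes, 28.1% ± 4.84 (n = 4) in non-astrocytes and 65.8% ± 3.73 (n = 4) in bulk tissue, with no overlap between the fractions.

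Hexokinase, which traps glucose in the cell as its phosphate, showed the opposite isoforms in the sorted cells. Hk2 (chromosome 6, 82725025 to 82774454) read 175, 183 and 142 in the deep and 175, 149 and 185 in the upper layer astrocytes. In non-astrocytes it read 1979, 1162, 1811 and 1425, and in bulk tissue 69.3, 56.4, 81.1 and 71.1. The non-astrocytes were thus the highest fraction and bulk tissue the lowest, with no overlap. Hk2 was 9.28-fold lower in astrocytes than in non-astrocytes (log2 -3.21, SE 0.174, limma adjusted p = 2.62e-10) and 2.41-fold higher than in bulk tissue (adjusted p = 1.09e-05). Hk1, the main brain hexokinase (chromosome 10, 62268855 to 62379908), read 991, 740 and 1019 in deep and 999, 1256 and 1308 in upper layer astrocytes, 534, 788, 643 and 805 in non-astrocytes, and 3352, 3652, 3015 and 3212 in bulk tissue. It was higher in astrocytes than in non-astrocytes by 0.60 (adjusted p = 0.00187), although the libraries overlapped, and lower than in bulk tissue by -1.67 (adjusted p = 6.39e-08). Per exon length, Hk1 made up 81.0% ± 4.08 of the summed level of Hk1 and Hk2 in astrocytes, 24.1% ± 7.5 in non-astrocytes and 97.1% ± 0.636 in bulk tissue. Hk3, given further on, is not in that sum. Scaled by the longest transcript instead, the share of Hk1 in non-astrocytes was 36.5%. Gpi1, the isomerase that acts between hexokinase and phosphofructokinase, was higher in astrocytes than in non-astrocytes (0.58) and lower than in bulk tissue (-0.71), both called. Exons of Gpi1 overlap Gm26762 over 11.5% of their length.

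Phosphofructokinase, the committed step of glycolysis, is encoded by Pfkm, Pfkp and Pfkl. Pfkm (chromosome 15, 98092589 to 98132451) read 3118, 3238 and 4180 in deep and 3716, 5523 and 5223 in upper layer astrocytes, 363, 477, 417 and 529 in non-astrocytes, and 3798, 3946, 3743 and 3581 in bulk tissue. Astrocytes overlapped bulk tissue and lay far above non-astrocytes, by 9.18-fold (log2 3.20, SE 0.143, limma adjusted p = 2.97e-11). The difference from bulk tissue was 0.11 (adjusted p = 0.511). Exons of Pfkm overlap those of Gm26513 and Senp1 over 10.7% of their length, and the strand setting of the counting is not stated in the sources used. Pfkp showed the same order, at 6437 ± 854 in astrocytes, 1005 ± 71.6 in non-astrocytes (log2 2.67, adjusted p = 2.26e-11) and 5345 ± 869 in bulk tissue (0.27, adjusted p = 0.0519). Over 24 alternatives the adjusted p of Pfkp against bulk tissue ran from 0.0149 to 0.127. Pfkl did not differ beyond the spread between the sorted fractions (589.7 ± 120 against 565.9 ± 79.9, adjusted p = 0.772) and was lower than in bulk tissue by -0.82. Its share of the length-scaled level of Pfkm, Pfkp and Pfkl was 4.86% in astrocytes, 28.8% in non-astrocytes and 9.16% in bulk tissue.

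The bifunctional enzymes Pfkfb2, Pfkfb3 and Pfkfb4 set the level of fructose 2,6-bisphosphate, an activator of phosphofructokinase. All 3 were higher in astrocytes than in either of the other fractions. Pfkfb4 differed most, at 778.2 ± 168 against 145.7 ± 2.54 in non-astrocytes (log2 2.38) and 126.9 ± 14.8 in bulk tissue (2.58). Pfkfb3 rose less against non-astrocytes (0.81) than against bulk tissue (1.69), and Pfkfb2 the other way round (1.5 and 1). Exons of Pfkfb2 overlap Gm29427 and Yod1 over 19.5% of their length.

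From triose phosphate to pyruvate, Gapdh, Pgk1, Pgam1 and Tpi1 were higher in astrocytes than in non-astrocytes but not than in bulk tissue. Gapdh, glyceraldehyde phosphate dehydrogenase, was at 9700 ± 1850 in astrocytes, 3757 ± 745 in non-astrocytes (log2 1.37) and 13770 ± 1340 in bulk tissue (-0.52). Pgk1 (1.53 and -0.01), Pgam1 (1.24 and -0.76) and Tpi1 (0.98 and -1.06) followed, with the log2 difference from non-astrocytes given first and that from bulk tissue next. Of these only the Pgk1 difference from bulk tissue did not pass the test. Pkm, the pyruvate kinase of brain, was not called against non-astrocytes (-0.26, limma adjusted p = 0.162) and was lower than in bulk tissue (-1.09). Of the words of 50 bases in their transcripts, Pgk1 shares 53.9%, Pgam1 36.2%, Pkm 25.8% and Gapdh 25.1% with other genes, many of them processed pseudogenes, so reads could be split or lost there. Exons of Pkm also overlap Gm49759 over 15.3% of their length.

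The leading enolase differed between the fractions. Eno2, neuron-specific enolase (chromosome 6, 124760053 to 124769673), read 333, 194 and 244 in deep and 255, 374 and 278 in upper layer astrocytes, 466, 396, 597 and 644 in non-astrocytes, and 11348, 12542, 8856 and 11794 in bulk tissue. Both sorted fractions were far below bulk tissue without overlap, astrocytes by 40.2-fold (log2 -5.33, limma adjusted p = 4.29e-13) and non-astrocytes by 21.4-fold. Eno1 (chromosome 4, 150236721 to 150248879) read 4202, 5515 and 5696 in deep and 5980, 5985 and 6718 in upper layer astrocytes, 1510, 2439, 1219 and 2094 in non-astrocytes, and 3318, 3496, 3000 and 2853 in bulk tissue. Here the astrocytes were the highest fraction and the non-astrocytes the lowest (1.68 against non-astrocytes, 0.83 against bulk tissue, both called). Eno1b moved likewise (1.73 and 0.80), but 85.2% of its 50-base words occur in other genes, Eno1 among them, so its reads cannot be parted with certainty. Of the words of Eno1, 26.0% occur in other genes, Eno1b among them. The share of Eno1 in the length-scaled level of Eno1 and Eno2 was 94.6% ± 1.69 in astrocytes, 74.1% ± 8.27 in non-astrocytes and 20.1% ± 2.23 in bulk tissue. Eno1b is not in that sum, so the share would differ with its reads counted. In bulk tissue Eno1b was at 1527 ± 154 over 1877 exon bases, and Eno1 at 3167 ± 293 over 5379. The neuron marker sums given above moved with the Eno2 level across the fractions, and their part in the result was not tested.

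Of the lactate dehydrogenase subunits, Ldhb, the heart-type subunit (chromosome 6, 142490249 to 142507957), parted the fractions. It read 8841, 10276 and 8685 in deep and 10424, 12675 and 12028 in upper layer astrocytes, 1695, 2286, 1453 and 2587 in non-astrocytes, and 6370, 6765, 6688 and 8067 in bulk tissue. Astrocytes were above both other fractions without overlap (log2 2.41, limma adjusted p = 1.9e-09 against non-astrocytes, and 0.58, adjusted p = 0.00392 against bulk tissue). Ldha, the muscle-type subunit (chromosome 7, 46841475 to 46855627), read 4229, 3830 and 4574 in deep and 5864, 6873 and 7419 in upper layer astrocytes, 3655, 4626, 2817 and 4488 in non-astrocytes, and 5733, 6154, 5797 and 7023 in bulk tissue. Its fractions overlapped. The difference from non-astrocytes was 0.47 (adjusted p = 0.00834) and was lost on scaling by library totals (0.28, adjusted p = 0.0695) and without upper layer non-astrocytes 1 (0.30, adjusted p = 0.0585). Over 24 alternatives its adjusted p ran from 0.000865 to 0.0695. Per exon length, Ldhb made up 80.4% ± 2.62 of the summed level of Ldha and Ldhb in astrocytes, 51.9% ± 2.28 in non-astrocytes and 70.4% ± 0.501 in bulk tissue. Of the 50-base words of Ldhb, 21.0% also occur in Gm5514, so its reads could be split or lost there.

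**Figure D2:**
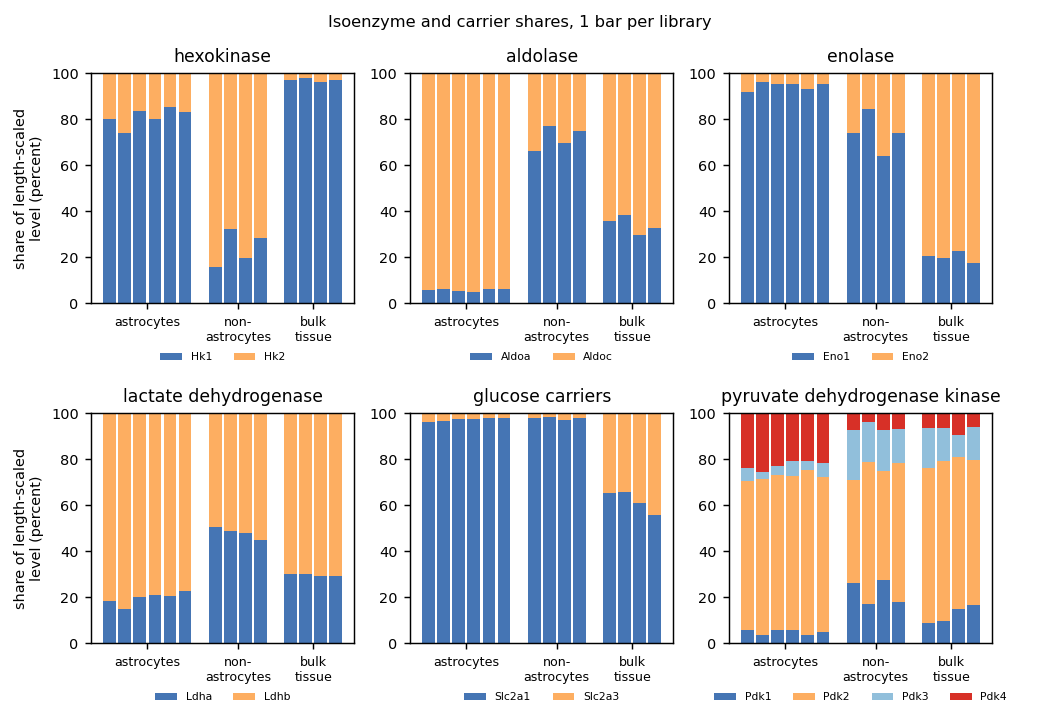
Share of each isoenzyme or carrier in the summed exon-length-scaled level of the members drawn in its bar (vertical axis, percent). Other genes of a family, such as Hk3 and Eno1b, are left out. Each of the 14 libraries has 1 stacked bar, deep before upper within a fraction. Aldoc fills 93.7% to 94.9% of the aldolase bar in astrocytes and 23.0% to 33.7% in non-astrocytes, and Pdk4 takes 20.9% to 25.7% of the kinase bar in astrocytes and at most 9.72% elsewhere.

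In the glycogen set the same 5 of 6 genes were higher in astrocytes than in non-astrocytes and in bulk tissue. Ppp1r3c, which targets protein phosphatase to glycogen and so activates its synthesis (chromosome 19, 36731731 to 36736653), read 5304, 4777 and 5767 in deep and 5615, 6002 and 6177 in upper layer astrocytes. It read 175, 196, 133 and 144 in non-astrocytes and 1098, 878, 1103 and 991 in bulk tissue. No fractions overlapped, and the difference was 34.8-fold against non-astrocytes (log2 5.12, SE 0.110, limma adjusted p = 4.77e-14) and 5.51-fold against bulk tissue (adjusted p = 3e-11). Pygb, the brain form of glycogen phosphorylase that releases glucose units (chromosome 2, 150786735 to 150831758), read 6050, 6394 and 8227 in deep and 7716, 9563 and 10026 in upper layer astrocytes, 851, 1056, 849 and 1178 in non-astrocytes, and 2474, 2521, 2469 and 2219 in bulk tissue. Pygm, the muscle form (chromosome 19, 6384399 to 6398459), read 1893, 2245 and 1898 in deep and 1987, 3265 and 2817 in upper layer astrocytes, 353, 391, 301 and 486 in non-astrocytes, and 786, 917, 773 and 738 in bulk tissue. Both phosphorylases were thus highest in astrocytes, by 8.06-fold and 6.08-fold over non-astrocytes and 3.25-fold and 2.87-fold over bulk tissue. Their proportions differed less. Pygb made up 69.5% ± 3.46 of the length-scaled level of Pygb and Pygm in astrocytes, 63.3% ± 1.82 in non-astrocytes and 66.9% ± 1.51 in bulk tissue, and the lowest astrocyte library (65.6%) nearly met the highest non-astrocyte library (65.4%).

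The enzymes that build glycogen differed from each other. Ugp2, which makes UDP-glucose, was at 4465 ± 828 in astrocytes, 1336 ± 270 in non-astrocytes (log2 1.75) and 1070 ± 45.5 in bulk tissue (2.04). Gys1, glycogen synthase, was at 851.1 ± 82.3, 317.8 ± 19 and 357.5 ± 40.2 in the same order (1.41 and 1.25). Gbe1, the branching enzyme, was alone in the set in passing neither test, at 356.5 ± 54.3 in astrocytes, 448.2 ± 47 in non-astrocytes (-0.34, limma adjusted p = 0.0501) and 338.5 ± 30.6 in bulk tissue (0.06, adjusted p = 0.711). With a pseudocount of 0.5 its adjusted p against non-astrocytes was 0.0494, and over 24 alternatives it ran from 0.00164 to 0.163. The set as a whole took 0.0720% to 0.0975% of the summed normalised counts in astrocyte libraries, 0.0158% to 0.0176% in non-astrocytes and 0.0204% to 0.0223% in bulk tissue.

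In pyruvate dehydrogenase control the kinases went separate ways. Pdk4, the kinase known for its induction by fasting (chromosome 6, 5483351 to 5496309), read 1076, 1794 and 1145 in deep and 1074, 1540 and 1428 in upper layer astrocytes, 164, 119, 134 and 179 in non-astrocytes, and 249, 242, 352 and 209 in bulk tissue. It was 8.91-fold above non-astrocytes (log2 3.15, SE 0.195, limma adjusted p = 1.23e-09) and 5.09-fold above bulk tissue (adjusted p = 4.04e-08), with no overlap. Pdk2 (chromosome 11, 95026258 to 95041354) read 2665, 4278 and 3044 in deep and 3112, 4768 and 3976 in upper layer astrocytes, 891, 1661, 799 and 1406 in non-astrocytes, and 2314, 2315, 2149 and 1921 in bulk tissue. Its difference was 1.65 from non-astrocytes (adjusted p = 3.46e-06) and 0.72 from bulk tissue (adjusted p = 0.0061), again without overlap. Pdk1 and Pdk3 were lower in astrocytes, by -0.88 and -0.64 against non-astrocytes and -0.67 and -0.86 against bulk tissue, all called. Per exon length Pdk2 led the sum of Pdk1, Pdk2, Pdk3 and Pdk4 in every fraction (67.7%, 53.7% and 66.4% in astrocytes, non-astrocytes and bulk tissue). The share of Pdk4 was 22.6% ± 1.86 in astrocytes against 6.38% ± 1.59 and 7.24% ± 1.66, and that of Pdk1 4.86%, 22.1% and 12.6%.

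Pdha1, the X-linked catalytic subunit that the kinases phosphorylate (chromosome X, 160122209 to 160138413), read 1494, 2234 and 1753 in deep and 2094, 2019 and 2308 in upper layer astrocytes. It read 872, 923, 727 and 1139 in non-astrocytes and 2010, 2141, 1872 and 2034 in bulk tissue. Astrocytes were above non-astrocytes (log2 1.12, limma adjusted p = 4.41e-06) and overlapped bulk tissue (-0.04, SE 0.141, adjusted p = 0.836). Exons of Pdha1 overlap Map3k15 over 16.1% of their length. Pdp1, the phosphatase that reverses the kinases, was lower in astrocytes (163.7 ± 39.4) than in non-astrocytes (266.7 ± 18.9, -0.73) and far lower than in bulk tissue (1571 ± 579, -3.21), all called.

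Carriers were the set with no member higher in astrocytes than in non-astrocytes. Slc16a7, the high-affinity monocarboxylate carrier known from neurons (chromosome 10, 125219270 to 125389465), read 17.7, 14.2 and 15.9 in deep and 18.1, 16.3 and 13.2 in upper layer astrocytes. It read 851, 682, 705 and 800 in non-astrocytes and 1328, 1555, 1843 and 2136 in bulk tissue. The 3 fractions did not overlap. Non-astrocytes were 2.23-fold below bulk tissue, where neuron marker sums were 5090 to 9861 and 132700 to 176300 in the same order. The part of neurons in the Slc16a7 level was not tested. Astrocytes were 45-fold below non-astrocytes (log2 -5.49, SE 0.156, limma adjusted p = 3.54e-13) and 100-fold below bulk tissue (-6.65, adjusted p = 4.95e-14), on a scale that understates changes of genes at so low a level.

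Slc16a1, the monocarboxylate carrier of endothelium and glia (chromosome 3, 104638668 to 104658462), read 2107, 2936 and 2156 in deep and 2737, 2622 and 2794 in upper layer astrocytes, 15702, 19114, 11048 and 16497 in non-astrocytes, and 2458, 2386, 1860 and 1862 in bulk tissue. Non-astrocytes stood apart at the top, and astrocytes overlapped bulk tissue. The differences were -2.59 (SE 0.134, limma adjusted p = 1.67e-10) from non-astrocytes and 0.26 (adjusted p = 0.106) from bulk tissue. Over 24 alternatives the adjusted p of Slc16a1 against bulk tissue ran from 0.000767 to 0.209. Slc16a3, the carrier of strongly glycolytic cells (chromosome 11, 120948480 to 120960868), was low everywhere. It read 24.8, 8.51 and 10.6 in deep and 34.4, 14.2 and 2.2 in upper layer astrocytes, 88.2, 96.4, 68.3 and 99.6 in non-astrocytes, and 55.2, 52.7, 33.2 and 21 in bulk tissue. Its astrocyte libraries spread widely, lay below all non-astrocyte libraries and overlapped bulk tissue (-2.76, adjusted p = 0.000218, and -1.58, adjusted p = 0.0141). Without upper layer bulk tissue 1 the comparison with bulk tissue no longer passed (adjusted p = 0.0593, the highest over 24 alternatives, of which the lowest was 0.0013). Endothelial, mural, microglia, precursor, meningeal fibroblast and blood marker sums were also highest in the non-astrocytes, and their part in these differences was not tested. Per exon length Slc16a1 made up 99.2% of the level of the 3 lactate carriers in astrocytes, 97.7% in non-astrocytes and 75.7% in bulk tissue, where Slc16a7 made up 23.1%.

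The glucose carriers repeated this order only in part. Slc2a1, the carrier of the blood-brain barrier and astrocytes, was at 7416 ± 1520 in astrocytes, 10990 ± 1410 in non-astrocytes (log2 -0.58, limma adjusted p = 0.00111) and 2537 ± 156 in bulk tissue (1.52, adjusted p = 6.4e-08). Slc2a3, the neuronal carrier, was at 425.6 ± 97.3, 507.3 ± 74.3 and 3226 ± 457 (-0.27, adjusted p = 0.142, and -2.94, adjusted p = 2.6e-10). Both sorted fractions thus held mostly Slc2a1 (97.2% ± 0.693 and 97.8% ± 0.539 of the length-scaled level of Slc2a1 and Slc2a3), while in bulk tissue it made up 62.0% ± 4.77.

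**Figure D3:**
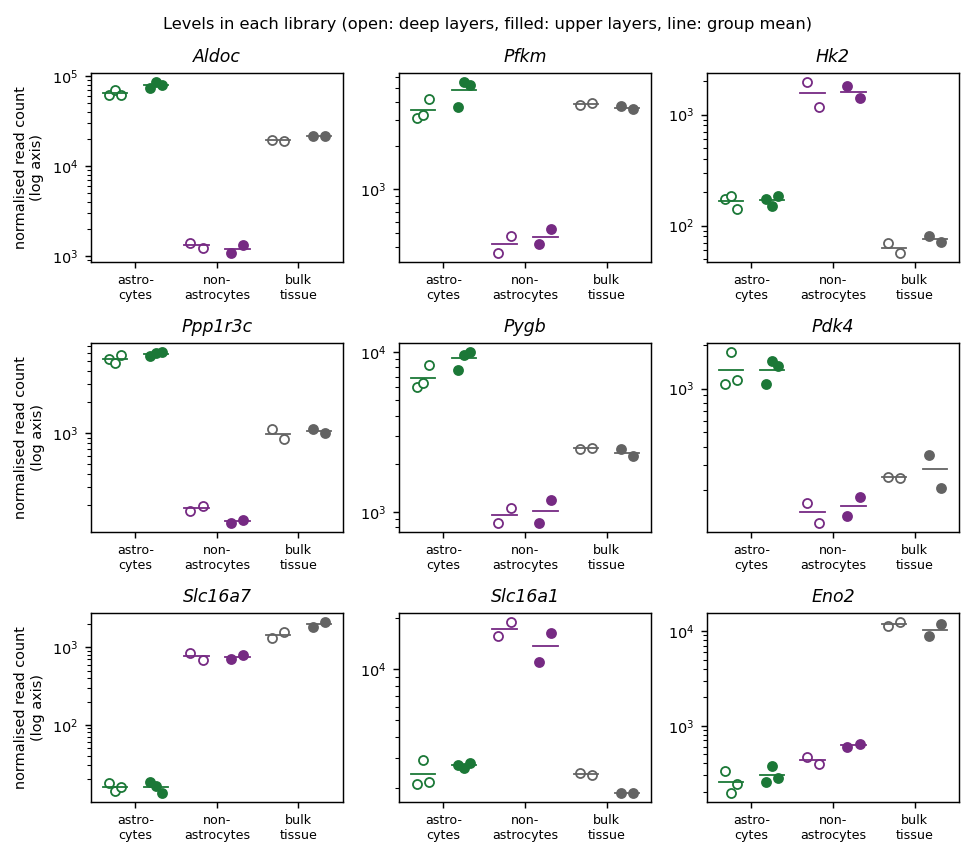
Normalised read counts on log axes for 9 members in each of the 14 libraries, with deep layers as open and upper layers as filled circles and a line at each group mean. Aldoc, Ppp1r3c, Pygb and Pdk4 are highest in astrocytes, Slc16a1 and Hk2 in non-astrocytes, and Slc16a7 and Eno2 in bulk tissue, while Pfkm overlaps between astrocytes and bulk tissue.

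Between non-astrocytes and bulk tissue (n = 4 against 4), 5 members were higher in non-astrocytes, 27 lower and 6 not called by limma. Among all genes 61.6% were called, 30.5% higher and 31.1% lower, and the median of the members was -1.01 against -0.04. On scaling by library totals the split was 9 higher and 24 lower. Over all 22575 genes that scaling called 9019 higher and 5054 lower, where the fit as reported called 6885 and 7030. The 5 higher members were Hk2 (4.48), Slc16a1 (2.85), Slc2a1 (2.11), Pfkfb3 (0.88) and Gbe1 (0.40). The call of Gbe1 was lost in turn without 6 of the 8 libraries compared, and its adjusted p ran from 0.000146 to 0.135 over 24 alternatives. In the glycolysis set 18 of 21 rows were lower, among them Eno2 (-4.42), Aldoc (-4.03) and Pfkm (-3.09).

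Other genes of the same pathways were taken from a list of 67, of which 61 passed the filter. Against non-astrocytes 29 were higher in astrocytes, 18 lower and 14 not called, where 29.6% of all genes were higher and 36.8% lower. The glycogen list held the largest rises, in Ppp1r3g, another glycogen-targeting subunit (1566 ± 361 against 29.75 ± 6.12, log2 5.66), and Phkg1, the catalytic subunit of phosphorylase kinase (1628 ± 244 against 50.61 ± 10.1, 4.99). Both were also higher than in bulk tissue (3.19 and 3.43). The largest falls in that list were Stbd1, at 0.6591 ± 1.17 against 28.1 ± 9.22 and so near its limit of detection in astrocytes, and Pgm2l1 (-2.83). In all, 10 of 22 glycogen genes were higher and 7 lower. Against bulk tissue 12 of these 22 were higher in astrocytes and 8 lower, where 28.8% of all genes were higher and 36.1% lower. Among 16 further glycolysis genes 7 were higher, among them the weakly expressed Fbp2 (6.921 ± 6.49 against 0.4547 ± 0.909), and 4 lower, among them Hk3 (10.57 ± 3.71 against 532.6 ± 114, -5.58), a hexokinase known from myeloid cells. All 9 further genes around pyruvate dehydrogenase were higher in astrocytes than in non-astrocytes, led by the phosphatase Pdp2 (1.77) and the subunit Dlat (1.42), and 4 of the 9 were higher than in bulk tissue. Of 14 further carriers 3 were higher, led by Slc2a12 (2.81) and Slc2a4 (2.04), and 7 were lower, led by the fructose carrier Slc2a5 of microglia (-6.08) and Emb (-3.71), an ancillary protein of Slc16a7. Microglia marker sums were 1659 to 4118 in astrocytes and 202700 to 289800 in non-astrocytes, and their part in the Hk3 and Slc2a5 differences was not tested.

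Upper and deep layers were compared within each fraction to see whether these genes differ by layer in astrocytes. No member passed the test in astrocytes (limma, n = 3 against 3), where 0.0797% of all genes were called (0.0399% higher and 0.0399% lower). An unadjusted p below 0.05 was reached by 12 members, against 10.3% of all genes, and neither edgeR nor DESeq2 called any. Of the 38 members, 30 lay above 0 and the median log2 difference was 0.29, where the median of all genes was 0.01. The glycolysis set lay highest, with 18 of 21 rows above 0 and a median of 0.33. The members share their libraries, so these counts are a description. Within the numbered pairs of astrocyte libraries, 30, 29 and 33 of the 38 members were higher in the upper library. The share of all genes higher in the upper library of each pair was not computed. A shift of a whole library therefore cannot be told apart there. Without deep layer astrocytes 2, 32 members lay above 0 and the median was 0.35.

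Ldha had the smallest p of the members in astrocytes. Its counts, given above, were 6719 ± 788 in upper and 4211 ± 373 in deep layer astrocytes (n = 3 each), with every upper library above every deep one (log2 0.67, SE 0.179, limma adjusted p = 0.22). With the replicate number as a block the adjusted p was 0.0331, and Ldha was then the only member called. Over 24 alternatives its adjusted p ran from 0.0331 to 0.555. There were 10 members higher in all 3 upper than in all 3 deep layer astrocyte libraries (Pfkl, Aldoc, Tpi1, Gapdh, Pgk1, Eno1, Ldha, Ldhb, Pfkfb4 and Pdk3) and 0 lower in all, where 8.7% and 7.31% of all genes were. Without deep layer astrocytes 2 these counts were 19 and 1, against 17.7% and 14.2% of all genes.

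In non-astrocytes (n = 2 against 2) no member was called by limma, edgeR or DESeq2, 2 had an unadjusted p below 0.05 (against 3.86% of all genes), and 0.00443% of all genes were called. Here 14 members lay above 0 and the median was -0.10, against -0.03 for all genes. Only 2 members were above without overlap (Eno2 and Slc2a3) and 5 below, against 11.8% and 13.7% of all genes. Oligodendrocyte marker sums were 117900 to 159100 in deep and 55390 to 63430 in upper layer non-astrocytes, neuron marker sums were 5090 to 7007 and 8456 to 9861, and their part in these values was not tested. The numbered pairs did not match, with 6 members higher in the upper library of pair 1 and 19 in that of pair 2. Here too the share of all genes in each pair was not computed.

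In bulk tissue (n = 2 against 2) 0 members were called by limma, where 0.456% of all genes were (0.159% higher and 0.297% lower), and 3 had an unadjusted p below 0.05, against 7.26% of all genes. The median of the members was -0.10, against 0 for all genes, and 7 members were above without overlap and 17 below, against 22.4% and 21.3% of all genes. Oligodendrocyte marker sums were 131600 to 155200 in deep and 39650 to 43330 in upper layer bulk tissue, and their part in these values was not tested. Pdp1 (chromosome 4, 11958184 to 11966452) differed most in p. It read 1051 and 1108 in deep and 1923 and 2201 in upper layer bulk tissue, 209, 217 and 144 in deep and 146, 121 and 145 in upper layer astrocytes, and 273, 288, 263 and 243 in the non-astrocytes. Upper bulk tissue was thus above deep, and the sorted fractions showed no such rise. The difference in bulk tissue was 0.93 (SE 0.223, limma adjusted p = 0.099). With edgeR it was called (adjusted p = 0.0454), as with DESeq2 (0.00155), and over 24 alternatives the adjusted p ran from 0.00129 to 0.681. Pdk1 came next, at 1203 and 1255 in upper and 744 and 810 in deep layer bulk tissue (0.66, adjusted p = 0.139), and was called by DESeq2 (0.0193) but not by edgeR, with a range of 0.011 to 0.838 over 24 alternatives. With the replicate number as a block Pdk1 was called (0.66, limma adjusted p = 0.0442) and Pdp1 was not (0.93, adjusted p = 0.0737). The sex-linked values of bulk tissue go by that number in both layers, with the Y-linked Kdm5d at 0 and 0 normalised read counts in the libraries numbered 1 and at 321 and 342 in those numbered 2.

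The layer difference of astrocytes was then tested against that of the other fractions as an interaction. Against bulk tissue 0 members were called by limma and 5 had an unadjusted p below 0.05 (against 8.03% of all genes), where 0.137% of all genes were called (0.0576% lower). Pdp1 came nearest, with a layer difference of -0.44 in astrocytes and 0.93 in bulk tissue, an interaction of -1.37 (SE 0.288, adjusted p = 0.091). Its adjusted p was 0.0419 by edgeR (-1.42), 0.000603 by DESeq2 (-1.39) and 0.0317 by limma with deep layer astrocytes 3 left out (-1.56), was 0.0594 with the replicate block (-1.37), and ran from 0.000603 to 0.509 over 24 alternatives. Against non-astrocytes 0 members were called by limma, edgeR or DESeq2, and 4 had an unadjusted p below 0.05, against 5.98% of all genes (0.00443% of all genes were called). The 2 smallest p there were those of Pdk3 (1.06, adjusted p = 0.635) and Ldha (0.88, adjusted p = 0.687).

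**Figure D4:**
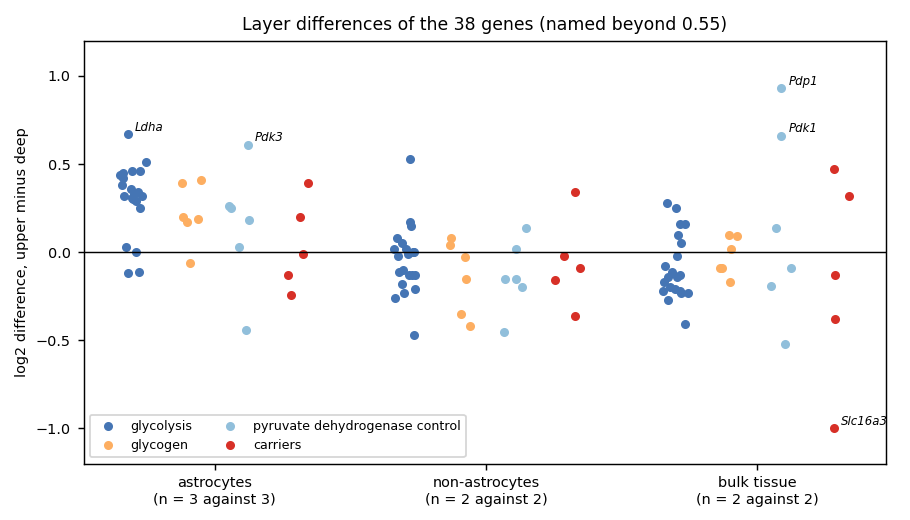
Log2 difference of upper minus deep layers for each of the 38 members, by fraction and coloured by set, with members beyond 0.55 named. In astrocytes 30 of 38 points lie above 0, with Ldha at 0.67, while in bulk tissue Pdp1 (0.93) and Pdk1 (0.66) lie above a median of -0.10.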

How the data were processed

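Single-end RNA-seq of 14 libraries was used. TopHat2 2.0.11, HTSeq 0.6.1p1, CASAVA and DESeq2 are named in the submitters' processing notes, with build GRCm38. Each deposited value is a signal, namely a read count over the size factor of its library (0.705 to 1.303), and 100% of values came out as whole reads within 1e-06. Per the labels' protocols, RNA was amplified with a NuGEN RNA-Seq V2 kit, and several libraries shared a sequencing lane. Their assignment to lanes is not stated in the sources used. Groups follow the sample titles, since the characteristics of the upper layer sorted libraries name bulk tissue. The 32007 identifiers found in GENCODE M21 (GRCm38) gave coordinates and exon lengths.

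Genes with a value of 10 or more in 2 or more libraries were tested (22575 genes). limma 3.58.1 in R 4.3.3, with trend and robust moderation, was fitted to log2(value + 1) over 6 group means (8 residual degrees of freedom). The Benjamini-Hochberg adjustment ran over all genes tested. edgeR 4.0.16 and DESeq2 1.42.0 on the recovered reads were alternatives, with other pseudocounts (0.5 and 10), filters, scalings, a replicate block, fewer groups and each library left out. For a share of a family, values were divided by summed exon length. Counts were also simulated for upper against deep layer astrocytes over 22575 genes. The simulated spread was the same for every gene and library, and only genes above a mean level of 50 were changed. Of 100 genes changed by 1 on the log2 scale 79 were recovered, and of 100 changed by 2 all 100 were. There were 32 false calls among 211, of which 3 were at a mean level of 50 or more. The real libraries differed in spread, so these counts check the fit and do not give its power in these data.

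Same-numbered astrocyte libraries of the layers deviated together (correlations of their deviations from the group means of 0.20, 0.15 and 0.17), so the blocked value stands beside that comparison where it changed a call. Members and gene lists were chosen with earlier results of these data known. All 37 symbols are named. Values of every library are given for the 3 called members of each set with the largest difference between astrocytes and non-astrocytes, for members called in a layer comparison, and for families of 2 isoenzymes whose shares did not overlap between those fractions. Pdp1 and Pdk1 in bulk tissue fall outside this rule and were chosen once their values were known. Other pathway genes are named as the 2 largest called changes in each direction of a set, except that 2 such genes are not reported here.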

Additional observations from a re-analysis of the deposited data

How the results depend on the processing

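Over all alternatives no member called as reported changed direction. Of the values of those members 1859 kept their call and 17 lost it. The 17 were of Aldoa and Ldha (astrocytes against non-astrocytes), Slc16a3 (against bulk tissue) and Ldha, Pfkfb2, Pdk4 and Gbe1 (non-astrocytes against bulk tissue). Calls gained were not in these counts. At least 1 alternative called Gbe1, Pkm and Slc2a3 in astrocytes against non-astrocytes, and Pfkp and Slc16a1 against bulk tissue. Between non-astrocytes and bulk tissue Ugp2, Pdk1, Slc16a3 and Pfkfb4 gained a call in the same way. Of the counts of called members, 273 stayed within 1.5 times and 11 did not. Scaling by library totals moved the median of all genes from -0.08 to -0.25, from -0.10 to 0.07 and from -0.04 to 0.32 in the 3 comparisons of fractions, and the members higher in non-astrocytes than in bulk tissue from 5 to 9. Over all genes those called higher in non-astrocytes than in bulk tissue went from 6885 to 9019 of 22575. With the replicate block 1 member was called higher in upper layer astrocytes (Ldha) and 1 in upper bulk tissue (Pdk1), and the block moved no other count of members by over 1.5 times. Over all genes it raised the calls between layers from 18 to 188 in astrocytes, 1 to 33 in non-astrocytes and 103 to 261 in bulk tissue. Same-numbered libraries of the layers correlated at 0.44 in the non-astrocytes and 0.09 in bulk tissue, and same-numbered libraries of different fractions at -0.01 to 0.17. With 2 numbers a layer outside the astrocytes the correlation was not used to settle a pairing there, while the Y-linked values of bulk tissue go by number in both layers. In upper bulk tissue 1 member was called higher with a pseudocount of 10, 1 with edgeR, 2 with DESeq2 and 2 on the compared groups alone. Over all genes 124, 59, 180 and 564 were called higher in the same order, of 22575 tested (20815 with DESeq2). For the layer difference of astrocytes minus bulk tissue 1 member (Pdp1) was called lower with a pseudocount of 10, with edgeR and with DESeq2, and 0 to 1 with each library left out. Over all genes 33, 22 and 95 were called lower there, of 22575 tested (17751 with DESeq2), and 0 to 26 with each library left out. Leaving out 1 library gave 23 to 25 members higher and 9 to 11 lower in astrocytes than in non-astrocytes. Against bulk tissue the counts were 16 to 17 and 14 to 15. For non-astrocytes against bulk tissue they were 4 to 6 and 27 to 27. Over all 22575 genes these settings called 5836 to 6815 higher and 7662 to 8486 lower in astrocytes than in non-astrocytes. The ranges were 5828 to 6619 and 7410 to 8263 against bulk tissue. They were 6318 to 6804 and 6388 to 6975 for non-astrocytes against bulk tissue. With the longest transcript in place of summed exons, shares in astrocytes, non-astrocytes and bulk tissue were 88.6%, 36.5% and 98.4% for Hk1, 61.1%, 36.5% and 59.6% for Pfkm, 91%, 19.6% and 54.6% for Aldoc, and 73.1%, 41.6% and 61.1% for Ldhb. Eno1 moved to 96.5% in astrocytes and 28.3% in bulk tissue, Pfkfb2 to 44% in non-astrocytes, Pygb to 65.5% and 68.9% in non-astrocytes and bulk tissue, and Pdk2 to 72.7% in astrocytes. For Hk1, Pfkm, Aldoc and Ldhb the order of the fractions was as before. With 2 libraries a layer, differences between layers in the non-astrocytes and bulk tissue were tested on little replication.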
